A study of Mus musculus with 5 samples.

Results

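Parp9, Parp12, Parp14, Dtx3l, Trim21, Trim25, Trim30a and Trim34a are mouse genes induced by interferon that encode ADP-ribosyltransferases of the PARP family, a deltex ubiquitin ligase and ubiquitin ligases of the TRIM family. They were taken by gene symbol from the array's annotation, with every probe of each gene. Of these 8 genes, 6 had an annotated probe, 8 probes in all, and all 6 had a probe above background on at least 2 arrays, as did 8927 of the 16593 genes with an annotated probe. No probe in the annotation used carried the symbol Dtx3l or Trim34a, and their transcripts were not analysed here. The question was whether these genes changed when Tarbp2, which encodes a double-stranded RNA-binding protein known as a partner of Dicer, was knocked down in cells that have no Dicer.

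The cells were C57BL/6 mouse embryonic fibroblasts (MEFs) of a line without Dicer, the RNase that processes double-stranded RNA into small RNAs, and that loss is shared by all 5 samples, controls included. Knockdown samples were transfected with siTARBP2-1 (1 array) or siTARBP2-2 (1 array), which the submitters describe as independent small interfering RNAs (siRNAs), and control samples with siControl (3 arrays, siControl-1 to siControl-3). Total RNA was collected 48 hours after transfection and hybridised to 1-colour Illumina BeadChips. The labels do not tell how the 3 control transfections differ. The design text speaks of mock-transfected metastatic cells where the labels say siControl and MEFs, and the labels were followed. No label ties the arrays to separate cultures, so the p-values rest on a spread between samples that could be technical in origin.

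Interferons act through receptor-bound kinases that activate a factor containing STAT2 and IRF9, which binds interferon-stimulated response elements (ISREs) in promoters. PARP9, PARP12 and PARP14 belong to the ADP-ribosyltransferases that this pathway switches on, and DTX3L is the ubiquitin ligase that pairs with PARP9. TRIM21 is a cytosolic receptor for antibody-coated virus, TRIM25 ubiquitinates the RNA sensor RIG-I and attaches the ubiquitin-like protein ISG15, and TRIM30a is a rodent TRIM protein described in mouse macrophages as a brake on NF-kB signalling.

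The promoters of the genes were read from RefSeq on mouse build GRCm38.p6, from 250 bases before to 50 bases after each transcript start, and scanned for the ISRE core GAAANNGAA and the gamma-activated site core TTCNNNGAA on both strands. The table held 7 windows for 6 of the 8 genes, 2 of them for Trim30a; Parp9 and Parp14 had no entry. The ISRE core was present in 5 of the 7 windows (71.4%), and in 2812 of all 32851 RefSeq promoter windows of the same length (8.56%). All 5 are windows of TRIM genes, and both Trim30a windows are among them with the same matched letters. The genes were chosen as interferon-induced, so their share is not independent of that choice. The gamma-activated site core was in 0 of the 7 windows, and in 2726 of all windows (8.3%). A match is a description of letters, not a shown binding site. The windows of Trim21, Trim30a, Trim25 and Parp12 are printed because they pair differently with the array results given further on: Trim21 and Trim30a hold the core and rose with an siRNA, Trim25 holds it and did not pass the test, and Parp12 rose with no core in its window. Each is written 5′ to 3′ on the strand of the gene, with the letters of the ISRE core, or of its reverse complement, in capitals. The windows lie at chr7:102565433-102565732 on the minus strand for Trim21, at chr7:104465144-104465443 on the minus strand for Trim30a, at chr11:88999153-88999452 on the plus strand for Trim25 and at chr6:39118300-39118599 on the minus strand for Parp12.
Trim21: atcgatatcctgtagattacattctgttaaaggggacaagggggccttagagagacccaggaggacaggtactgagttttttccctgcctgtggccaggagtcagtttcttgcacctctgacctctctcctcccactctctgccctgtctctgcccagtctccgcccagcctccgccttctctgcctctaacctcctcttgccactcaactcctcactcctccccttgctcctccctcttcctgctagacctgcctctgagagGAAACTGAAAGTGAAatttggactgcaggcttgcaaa
Trim30a: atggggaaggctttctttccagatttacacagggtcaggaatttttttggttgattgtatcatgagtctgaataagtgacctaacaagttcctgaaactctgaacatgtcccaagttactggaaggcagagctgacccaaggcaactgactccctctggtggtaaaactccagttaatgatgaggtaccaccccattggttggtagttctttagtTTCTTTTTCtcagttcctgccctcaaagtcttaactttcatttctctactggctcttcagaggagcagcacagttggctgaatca
Trim25: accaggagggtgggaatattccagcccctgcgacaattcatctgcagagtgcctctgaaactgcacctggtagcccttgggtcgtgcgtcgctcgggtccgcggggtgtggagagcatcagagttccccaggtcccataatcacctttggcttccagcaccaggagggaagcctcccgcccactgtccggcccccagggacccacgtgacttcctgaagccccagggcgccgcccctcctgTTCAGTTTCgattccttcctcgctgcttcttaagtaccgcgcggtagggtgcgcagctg
Parp12: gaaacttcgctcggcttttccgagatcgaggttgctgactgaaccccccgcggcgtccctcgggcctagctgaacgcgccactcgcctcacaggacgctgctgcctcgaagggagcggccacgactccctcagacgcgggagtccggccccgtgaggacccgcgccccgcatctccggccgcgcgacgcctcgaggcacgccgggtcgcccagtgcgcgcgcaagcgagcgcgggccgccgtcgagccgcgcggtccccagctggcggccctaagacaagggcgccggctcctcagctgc

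Positions are those of the first base of each match. The transcript start, which is the first base after the 250 upstream bases, was counted as 1. Bases before it are negative, and there is no position 0. In Trim21 the core matched on the strand of the gene at 14 and 20, and these matches overlap each other. On the opposite strand it matched at -35 and 4 in the windows of the 2 Trim30a starts, at -9 in Trim25 and at 12 in Trim34a. The windows of Parp12 and Dtx3l held no match. In the RefSeq gene order Dtx3l overlaps Parp9 and lies next to Parp14 on chromosome 16, Trim30a lies between Trim30c and Trim30d on chromosome 7, and Trim34a lies between Trim6 and Trim5 on the same chromosome.

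**Figure D1:**
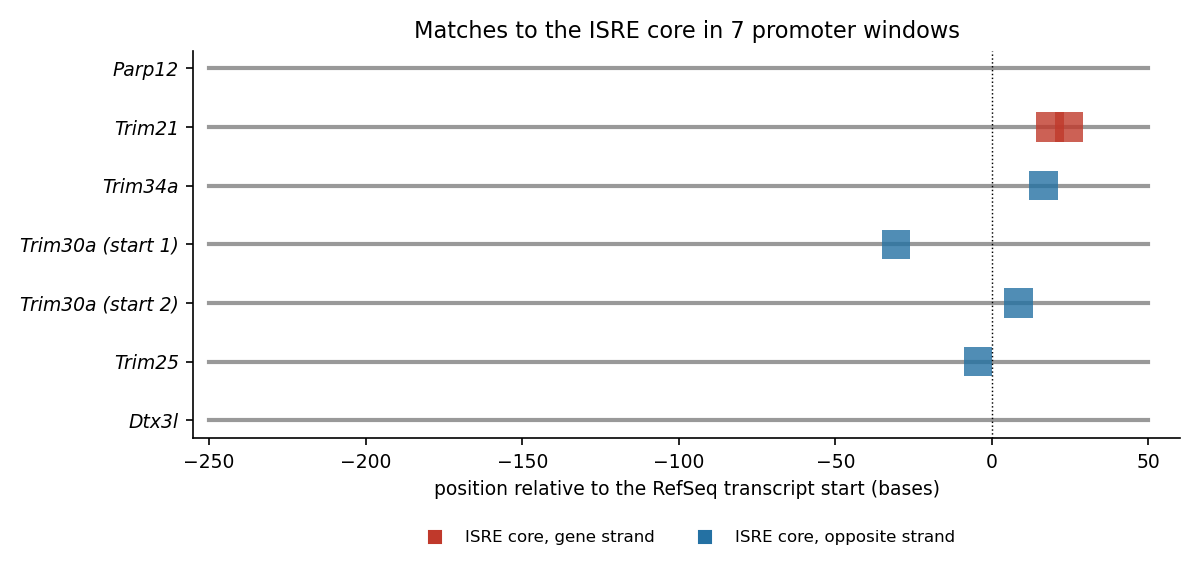
Position of each match to the ISRE core (coloured boxes, red on the strand of the gene and blue on the opposite strand) in the 7 RefSeq promoter windows, drawn from 250 bases before to 50 bases after the transcript start (dotted line). The matches of the Trim genes begin at positions from -35 to 20, and the lines of Parp12 and Dtx3l are empty.

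Raw median signal was 79 to 81.9 units. Raw mean signal was 427 units with siTARBP2-1, 474 with siTARBP2-2 and 449 to 478 on the controls. Probes above background numbered 12445 to 13051. The siTARBP2-2 count of 12696 rests on detection p-values taken from the other 4 arrays, so it cannot show likeness. Normalized Tarbp2 signal on its brighter probe was 28.7% of the control mean with siTARBP2-1 and 20.4% with siTARBP2-2, and on the second probe 37.6% and 20.9%. The siTARBP2-1 and siTARBP2-2 arrays stood apart from each other: the SD over probes of their log2 difference was 0.39, against 0.17 to 0.21 between pairs of control arrays. Of the fibroblast markers 5 of 6 were above background, Thy1 being the exception, with Vim (vimentin) the brightest. Col1a1 fell with both siRNAs (log2 difference -0.65, limma adjusted p = 0.0214, and -0.55, limma adjusted p = 0.0491), Col3a1 fell with siTARBP2-1 (-0.59, limma adjusted p = 0.0245), and Vim was at 0.12 with siTARBP2-1. The summed fibroblast signal was 7337.2 to 7929.2 units in the controls, 6374.8 with siTARBP2-1 and 7105.3 with siTARBP2-2. The sums of marker signal given here are raw, not normalized between arrays, and siTARBP2-1 also had the lowest raw mean over all probes. Of the leukocyte and macrophage markers, 0 of the 4 with an annotated probe were above background (Ptprc, Adgre1, Itgam and Cd3e), and their summed signal was 258.4 to 275.8 units in the controls, 262.4 with siTARBP2-1 and 253.8 with siTARBP2-2. The endothelial list had 0 of 4 above background, and the epithelial list 3 of 4, with Krt18 the brightest and a summed signal of 323.7 to 342.1 units in the controls, 320.1 with siTARBP2-1 and 376.7 with siTARBP2-2. The log2 difference of Krt18 was 1.08 with siTARBP2-2 (limma adjusted p = 0.0502), just short of the threshold, and 0.10 with siTARBP2-1. The part of these differences in the results was not tested, and in bulk RNA fewer cells of a kind and less RNA per cell cannot be told apart.

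Parp12, Parp14, Trim21 and Trim30a rose with siTARBP2-1, by 1.75-fold to 2.48-fold over the mean of the controls, and none of them rose with siTARBP2-2. Parp9 and Trim25 did not pass the test with either siRNA. With siTARBP2-1, 4 of the 6 measured genes were called higher and 0 lower (limma, Benjamini-Hochberg adjusted p under 0.05 over all probes above background), where 3.88% of all 8927 genes were called higher. The median log2 difference of the 6 genes was 0.99, with a range of 0.37 to 1.31, and the median over all genes was -0.01. All 6 genes read above every control array with siTARBP2-1, as did 32.9% of all genes. Each siRNA has a single array, which was assumed to vary like the 3 controls, and all comparisons with control use the same 3 control arrays.

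**Figure D2:**
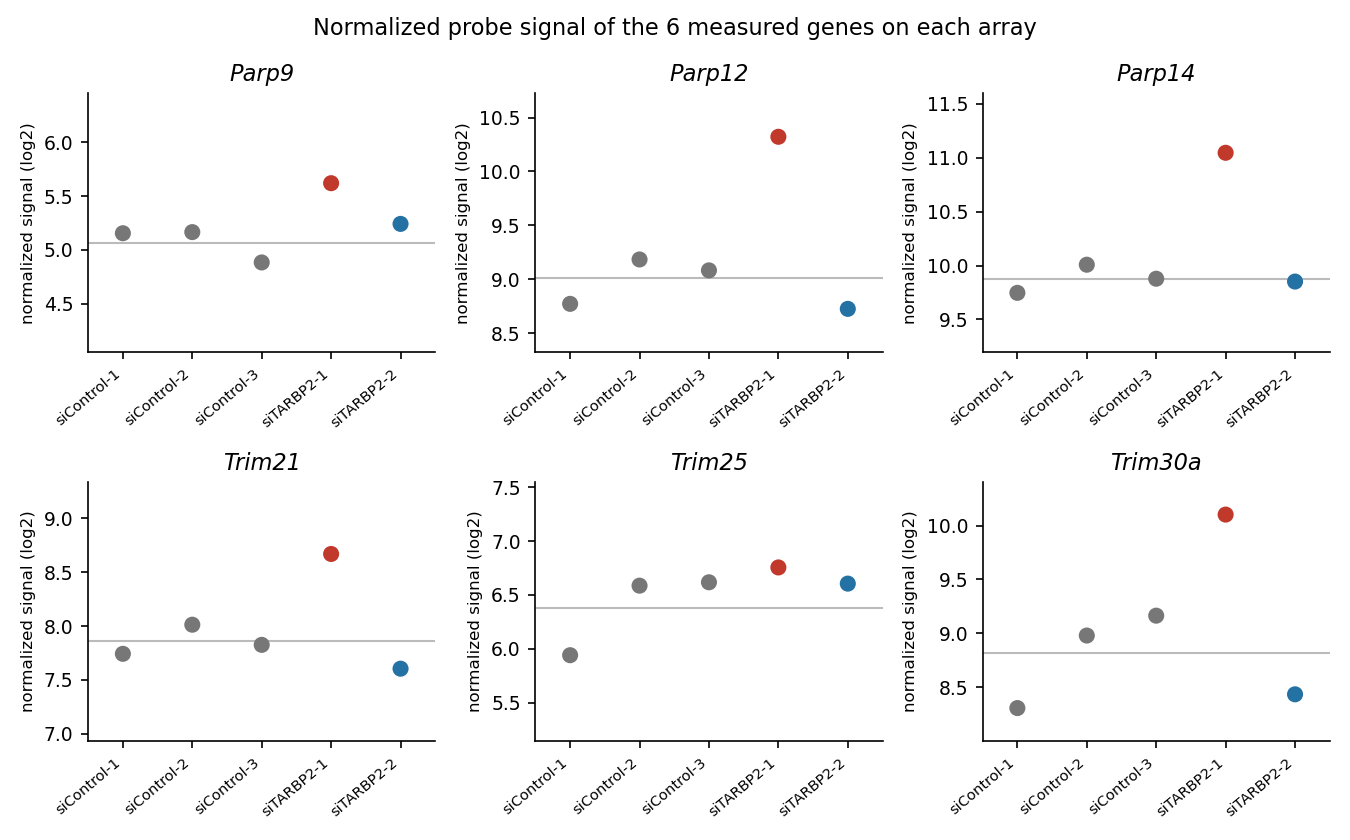
Normalized log2 probe signal of the 6 measured genes (1 panel per gene, each axis spanning the same number of log2 units) on each array, with control siRNA in grey, siTARBP2-1 in red, siTARBP2-2 in blue and the control mean as a line. The siTARBP2-1 point is the highest in every panel, and the siTARBP2-2 point lies within the controls or close to them.

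Among the ADP-ribosyltransferases, Parp14 (probe ILMN_2825803), which transfers single ADP-ribose units and carries macrodomains that read them, had a normalized log2 signal of 11.05 with siTARBP2-1, 9.85 with siTARBP2-2 and 9.75, 10.01 and 9.88 on siControl-1, siControl-2 and siControl-3. The siTARBP2-1 array stood above all others, and siTARBP2-2 lay inside the control range. The control mean was 9.88 ± 0.13 (SD, n = 3). Parp14 rose 2.25-fold with siTARBP2-1 (log2 difference 1.17, SE 0.13, limma adjusted p = 0.00548), with a 95% interval of 0.85 to 1.49. With siTARBP2-2 its log2 difference was -0.03 with an interval of -0.34 to 0.29 (limma adjusted p = 0.93).

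Parp12 (ILMN_1228913), an ADP-ribosyltransferase with zinc fingers that bind RNA, read 10.32 with siTARBP2-1, 8.72 with siTARBP2-2 and 8.77, 9.18 and 9.08 on the control arrays. It was highest with siTARBP2-1 and lowest, just under siControl-1, with siTARBP2-2. The rise with siTARBP2-1 was 2.48-fold (log2 1.31, SE 0.17, limma adjusted p = 0.00777), the greatest fold among the 6 genes. With siTARBP2-2 the log2 difference was -0.29 (95% interval -0.69 to 0.11, limma adjusted p = 0.366).

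Parp9 (ILMN_2486102), the partner of DTX3L, was dim, reading 5.62 with siTARBP2-1, 5.24 with siTARBP2-2 and 5.15, 5.16 and 4.88 on the controls. It was not above background on siControl-3, where its detection p was 0.0564, and both siRNA arrays read above all controls. With siTARBP2-1 the log2 difference was 0.55 (SE 0.15, unadjusted p = 0.00674, limma adjusted p = 0.0719), which did not pass the threshold. It was 0.17 with siTARBP2-2 (95% interval -0.17 to 0.52). Without background correction the siTARBP2-1 difference was 0.25, so its size depends on how background is handled.

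Among the TRIM genes, Trim21 had 3 probes, of which ILMN_3139158 was above background on all 5 arrays and ILMN_1214544 and ILMN_3061663 were not above background on any. The detected probe read 8.67 with siTARBP2-1, 7.60 with siTARBP2-2 and 7.74, 8.01 and 7.83 on the controls. Signal was above all controls with siTARBP2-1 and below all controls with siTARBP2-2. Trim21 rose 1.75-fold with siTARBP2-1 (log2 0.81, SE 0.14, limma adjusted p = 0.0193). The log2 difference with siTARBP2-2 was -0.26 (95% interval -0.58 to 0.07, limma adjusted p = 0.323).

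Trim30a (ILMN_1229630) read 10.10 with siTARBP2-1, 8.43 with siTARBP2-2 and 8.31, 8.98 and 9.16 on the controls. Its control arrays were spread over 0.86 log2 units, siControl-1 being the low one, and siTARBP2-2 lay close to siControl-1 while siTARBP2-1 stood above every control. The rise with siTARBP2-1 was 2.44-fold (log2 1.29, SE 0.30, limma adjusted p = 0.0493). That call was made under 7 of 10 alternatives: the limma adjusted p was 0.143 when dim probes were not filtered, 0.0604 with the mean of all kept probes of each gene and 0.0894 without siControl-2. With siTARBP2-2 the log2 difference was -0.38 (limma adjusted p = 0.488), and without siControl-1 it was -0.64 (limma adjusted p = 0.0464), over the alternatives a range of 0.0464 to 0.715 in adjusted p. The mouse genome holds close copies of Trim30a, and whether its probe also binds their transcripts was not tested.

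Trim25 (ILMN_2927093) read 6.76 with siTARBP2-1, 6.61 with siTARBP2-2 and 5.94, 6.59 and 6.62 on the controls. Both siRNA arrays lay next to siControl-2 and siControl-3, and siControl-1 was again the low array. The log2 difference was 0.37 with siTARBP2-1 (95% interval -0.24 to 0.98, limma adjusted p = 0.419) and 0.22 with siTARBP2-2 (95% interval -0.39 to 0.83, limma adjusted p = 0.647). Without siControl-1 these differences were 0.15 and 0.0033. 

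With siTARBP2-2, 0 of the 6 genes were called in either direction (limma), where 4.27% of all genes were called. At an unadjusted p under 0.05 it was also 0 of the 6, where 22.9% of all genes passed. The median log2 difference was -0.14, with a range of -0.38 to 0.22, beside 0.02 over all genes. Parp12 and Trim21 read below every control array, as did 32.1% of all genes. Parp9 read above every control array, as did 36.9% of all genes, and Parp14, Trim25 and Trim30a lay within the control range.

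The siRNAs differed from each other for the same 4 genes that rose with siTARBP2-1. In the direct comparison of siTARBP2-1 with siTARBP2-2, 4 of the 6 genes were higher with siTARBP2-1 (limma), where 3.72% of all genes were. Parp12 was 3.02-fold higher (log2 1.60, SE 0.21, limma adjusted p = 0.0103), Parp14 2.29-fold (log2 1.19, limma adjusted p = 0.0119) and Trim21 2.09-fold (log2 1.06, limma adjusted p = 0.0175). Trim30a was 3.18-fold higher (log2 1.67, limma adjusted p = 0.0437), a call made under 7 of 10 alternatives, with a limma adjusted p of 0.123 when dim probes were not filtered, 0.0513 on averaged probes and 0.0728 without siControl-2. For Parp9 the difference was 0.38 (95% interval -0.04 to 0.80, limma adjusted p = 0.241), and for Trim25 it was 0.15 (95% interval -0.60 to 0.90, limma adjusted p = 0.806). Parp12, Parp14 and Trim21 kept their calls under all 10 alternatives that could change siTARBP2-1 against control and under all 10 for siTARBP2-1 against siTARBP2-2.

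**Figure D3:**
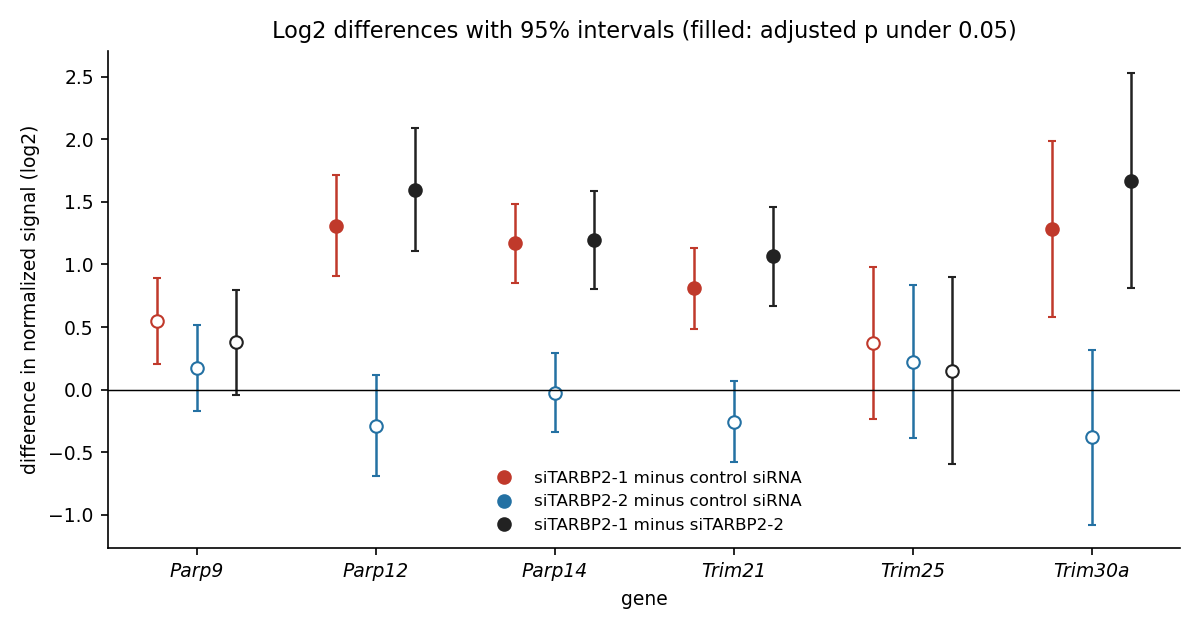
Log2 difference of each of the 6 genes with its 95% interval, for siTARBP2-1 minus control (red), siTARBP2-2 minus control (blue) and siTARBP2-1 minus siTARBP2-2 (black), with filled points where the limma adjusted p was under 0.05. Filled points are those of Parp12, Parp14, Trim21 and Trim30a in the first and last comparison, and no blue point is filled.

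Taking both siRNAs as a knockdown group, 0 of the 6 genes passed the test (limma). Over all genes 0.0112% were called, which is 1 gene, Tarbp2 itself. At an unadjusted p under 0.05, 0 of the 6 genes passed as well, where 12.9% of all genes did. The log2 differences ran from 0.28 for Trim21 to 0.57 for Parp14 (limma adjusted p = 0.502), with a median of 0.41. These means lie between unlike arrays: without siTARBP2-1 the median was -0.14, and without siTARBP2-2 it was 0.99 with 4 genes called. In the authors' deposited table of log2 fold changes, which marks 8.67% of its 18744 accessions as raised, 4 of the 6 genes were marked, with values of 0.54 for Parp14, 0.46 for Parp12, 0.39 for Trim30a and 0.11 for Trim25. The same authors' deposited table gave 0.08 for Parp9 and 0.08 for Trim21, both unmarked. It holds 1 value for the 3 probes of Trim21, and how that value was derived is not stated. The 0.28 given above is from the 1 detected Trim21 probe.

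Across the 5 arrays the genes moved alike to differing degrees. Parp12, Parp14, Trim21 and Trim30a had pairwise Pearson correlations of 0.914 to 0.990. Pairs of Parp9 with these genes had 0.554 to 0.842, and pairs with Trim25 had 0.284 to 0.685. These correlations describe 5 arrays, and siTARBP2-1 is the highest array for every one of the genes. The mean profile of the 6 genes, each centred on its control mean, was 0.92 with siTARBP2-1, -0.09 with siTARBP2-2 and -0.23, 0.15 and 0.07 on siControl-1, siControl-2 and siControl-3. The 5 other genes with the most similar profile were Oas3 (r = 0.999), which makes the oligoadenylates that activate RNase L, Commd8 (r = 0.998), Agrn (r = 0.997), which encodes agrin, Zfp809 (r = 0.997), which silences retroviral DNA in mouse cells, and Ptx3 (r = 0.995), a secreted pentraxin. Since the profile is high on siTARBP2-1, the choice of these genes already favours high readings there. Oas3 rose with siTARBP2-1 by 1.87 on the log2 scale (limma adjusted p = 0.00989), Agrn by 1.29 (limma adjusted p = 0.0134) and Ptx3 by 0.72 (limma adjusted p = 0.0216). Commd8, at 0.16, and Zfp809, at 0.48, did not pass, so a like profile over 5 arrays does not fix the size of a change.

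Of 13 other PARP genes listed, 7 were above background and 0 of these were called with either siRNA or between them. With so few genes this is near the background, since 7.65% of all genes were called with siTARBP2-1, 4.27% with siTARBP2-2 and 7.06% between the siRNAs. The 7 genes had a median log2 difference of -0.10 for siTARBP2-1 and -0.02 for siTARBP2-2. The greatest was that of Zc3hav1, which encodes the zinc finger antiviral protein, at 0.47 with siTARBP2-1 (limma adjusted p = 0.216).

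Of the other deltex genes 3 of 4 were measured and 0 were called against control, a count too small to set against the 7.65% and 4.27% of all genes called. Dtx4 was lower with siTARBP2-1 than with siTARBP2-2 by a log2 difference of -0.67 (limma adjusted p = 0.0467), a call made under 3 of 10 alternatives, and the difference was -0.35 without background correction. Against control that probe was at -0.29 with siTARBP2-1 and 0.38 with siTARBP2-2. A dimmer probe of Dtx4 was at only -0.13 and 0.09. Dtx2 was at -0.19 and Dtx3 at 0.03 with siTARBP2-1. Of 7 listed enzymes that remove or hydrolyse ADP-ribose, 3 were measured and 0 were called, again too few to set against those shares. Oard1, which cleaves ADP-ribose from proteins, was at -0.50 with siTARBP2-2 (limma adjusted p = 0.0564). Parg, which degrades ADP-ribose chains, was at -0.18 and Macrod1 at 0.14 with siTARBP2-1.

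Of 36 other TRIM family genes listed, 24 were measured, 2 rose with siTARBP2-1 and 0 were called with siTARBP2-2, near the shares of 3.88% called higher and 4.27% called over all genes. The median log2 difference was 0.000667 with siTARBP2-1 and 0.15 with siTARBP2-2. Trim30d, the neighbour of Trim30a and a close copy of it, read 7.62 with siTARBP2-1, 6.70 with siTARBP2-2 and 5.92 to 6.35 on the controls. It rose by 1.48 on the log2 scale with siTARBP2-1 (SE 0.17, limma adjusted p = 0.00548), and unlike Trim30a it read above every control with siTARBP2-2 as well, at a difference of 0.56 (limma adjusted p = 0.116). Pml, which organises nuclear bodies, rose by 0.65 with siTARBP2-1 (limma adjusted p = 0.0355), a call made under 7 of 10 alternatives. It was lost with median scaling, when dim probes were not filtered and without siControl-2, at limma adjusted p of up to 0.074. A second, dimmer probe of Trim2 fell with siTARBP2-1 (log2 difference -0.73, limma adjusted p = 0.0173) while its brighter probe, at -0.25, did not pass.

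**Figure D4:**
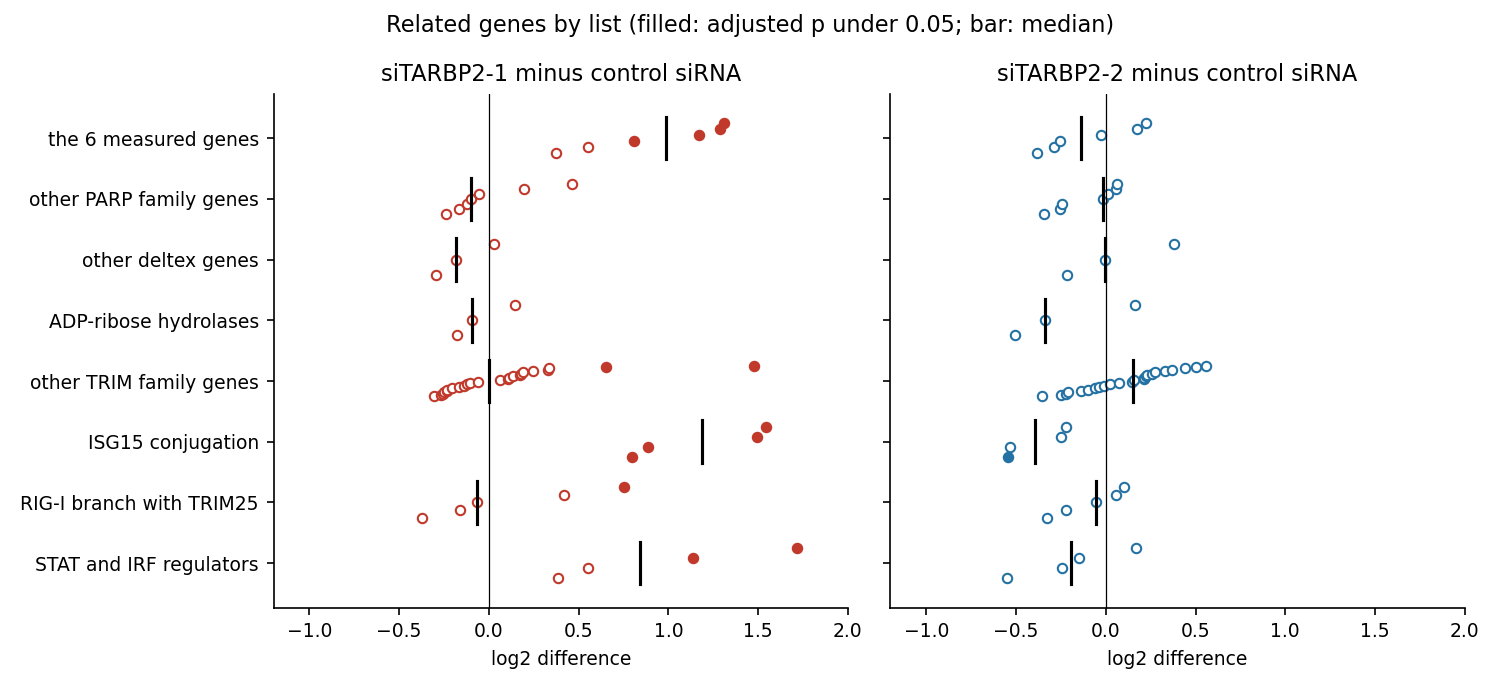
Log2 difference of each measured gene (points, filled where the limma adjusted p was under 0.05) and median (bar) for the 6 genes and for each related list, with siTARBP2-1 minus control on the left and siTARBP2-2 minus control on the right. Filled points on the left are in the TRIM, ISG15, RIG-I and STAT and IRF lists as well as among the 6 genes, and the right panel has 1, that of Uba7.

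The ISG15 conjugation genes, whose pathway TRIM25 serves as a ligase, rose together with siTARBP2-1. All 4 measured genes of the 5 listed were called higher, where 3.88% of all genes were, with a median log2 difference of 1.19. They were Usp18, which removes ISG15, at 1.54 (limma adjusted p = 0.00273), Isg15 itself at 1.49 (limma adjusted p = 0.00237), the conjugating enzyme Ube2l6 at 0.89 (limma adjusted p = 0.009, and 0.49 without background correction) and the activating enzyme Uba7 at 0.80 (limma adjusted p = 0.00989). With siTARBP2-2 the median was -0.39, and Uba7 fell (log2 difference -0.54, limma adjusted p = 0.0474). The call of Uba7 was made under 5 of 10 alternatives, and it was lost when any control array was left out, with median scaling and when dim probes were not filtered, at limma adjusted p of up to 0.139. The other 3 genes were not called with siTARBP2-2. Isg15 among them had a log2 difference of -0.54, close to that of Uba7, and whether it was called depended on the setting. The list is too small to set against the 4.27% of all genes called there.

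Of the RIG-I branch in which TRIM25 acts, all 5 listed genes were measured. With siTARBP2-1, 1 of them was called higher, a count too small to set against the 3.88% of all genes called higher. Ddx58, which encodes RIG-I, rose with siTARBP2-1 (log2 0.75, limma adjusted p = 0.0125), a call lost without siControl-2 (limma adjusted p = 0.0536). The ligase Rnf135 was at 0.42 (limma adjusted p = 0.0759), the adaptor Mavs at -0.37 (limma adjusted p = 0.138), the kinase Tbk1 at -0.16 and Irf3 at -0.07. Other probes of Rnf135 were at 0.33 (limma adjusted p = 0.348) and -0.12 (limma adjusted p = 0.632). Those of Irf3 were at 0.09 (limma adjusted p = 0.7) and -0.38 (limma adjusted p = 0.0949), so the probes of both genes differ in sign. With siTARBP2-2, 0 of the 5 were called, with Ddx58 at -0.33 (limma adjusted p = 0.15). That is near the share of 4.27% called over all genes.

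Of the STAT and IRF regulators 4 genes were measured, and 2 rose with siTARBP2-1, where 3.88% of all genes were called higher. Irf7, an inducible factor for interferon genes, rose by 1.72 on the log2 scale (limma adjusted p = 0.00371) and Stat2, part of the factor that binds ISREs, by 1.13 (limma adjusted p = 0.00588). Irf9, its DNA-binding partner, was at 0.55 (limma adjusted p = 0.0812), and its other probe passed at 0.52 (limma adjusted p = 0.0355). Irf1 was at 0.39 (limma adjusted p = 0.102) on its brightest probe, while 2 of its other probes passed, at 0.56 (limma adjusted p = 0.0473) and 0.65 (limma adjusted p = 0.0498). With siTARBP2-2, 0 of the 4 were called, near the share of 4.27% over all genes, with a median of -0.20. Irf7 had a log2 difference of -0.55 there, and whether it was called depended on the setting.

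**Figure D5:**
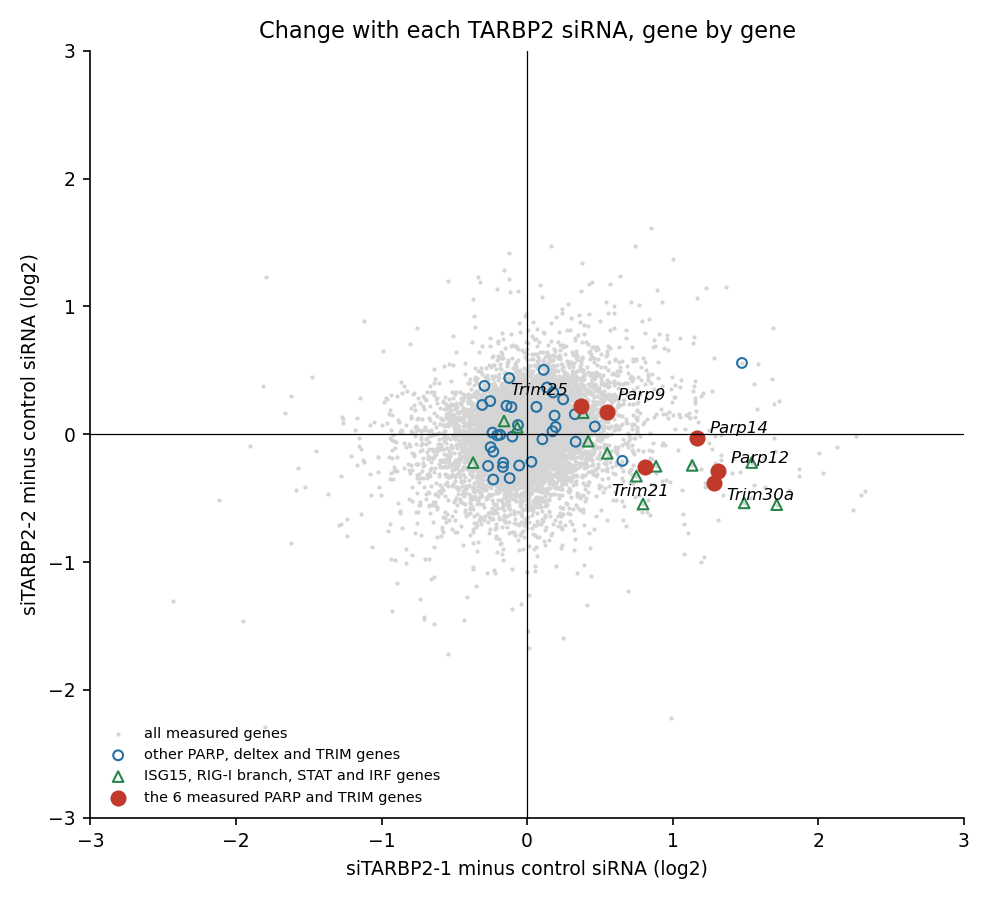
Log2 difference from control with siTARBP2-1 (horizontal) and siTARBP2-2 (vertical) for the 8927 measured genes (grey) and the 6 genes (red, named). Open symbols are the related lists, except the enzymes that remove or hydrolyse ADP-ribose, which are not marked. The axes have fixed limits, and any gene beyond them is not shown. Both axes use the same 3 control arrays, and Parp12, Parp14, Trim21 and Trim30a lie to the right at 0.81 to 1.31 with vertical values of -0.38 to -0.03.

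Median scaling in place of quantile normalization moved the median of all genes by -0.11 with siTARBP2-1, and the share of all calls that were higher went from 50.7% to 30.3%, while the 4 genes kept their calls there. The single array per siRNA means that a difference between siTARBP2-1 and siTARBP2-2 cannot be told apart from a difference between those arrays.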

How the data were processed

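Transcripts of 5 samples were measured on 1-colour Illumina BeadChips. The authors deposited a table of non-normalized signal intensity for 25697 probes, with a detection p-value per probe and array, per the file headers. Their series matrix holds intensity normalized between arrays on a linear scale, and the submitters' processing notes name lumi with no version. The authors' deposited table of log2 fold changes gives 1 value and a mark of 0 or 1 per accession, per the file headers. For bead summary, any further steps and the genome build, nothing is stated in the sources used here. Beside siTARBP2-2, the deposited detection p-value column did not follow that array's signal (Spearman correlation 0.000598 across probes, against -0.961 to -0.967 on the other 4 arrays). In its place stands, at each signal rank, the mean p-value that the other 4 arrays have at that rank; this was decided once the files had been seen.

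Intensities were background corrected, quantile normalized and taken to log2 with neqc of limma 3.58.1 (R 4.3.3), using an offset of 16 and inferring the negative controls from detection p-values. The 13123 probes detected at p under 0.05 on 2 or more arrays were kept. Symbols came from the platform annotation, which names 1 gene for 23978 probes and none for 1719, and a gene was represented by its kept probe with the highest mean. Limma's lmFit and eBayes (two-sided) compared both siRNAs with control (3 residual degrees of freedom) and, in a second fit, each siRNA with control and with the other (2 residual degrees of freedom), adjusted by Benjamini-Hochberg over all kept probes at 0.05. The fits were tested on simulated arrays that all had the spread of the controls, with the same change added to both siRNA arrays. That setting cannot show whether a lone siRNA array varies like the controls. The number of arrays limits the precision.

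The genes, the related lists and the tests were chosen with earlier results of these data known. The text names all 8 genes with every probe, the called members of each related list, any member of a list of 7 or fewer, the brightest marker of each list, and the 5 genes with the closest profile. Trim2, Zc3hav1, Col1a1, Col3a1 and the markers not above background were added after their values were seen. Alternatives were other background correction, scaling, filters and probe summaries, the authors' series matrix, a replicate block and leaving out each array. The deviations of same-numbered arrays from their group means had correlations of -0.05 and -0.03. With a single array per siRNA, the siRNA deviations mirror each other and hold the difference between the siRNAs. These correlations therefore cannot show whether same-numbered arrays shared a culture, and no label ties them to shared cultures.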

Additional observations from a re-analysis of the deposited data

Results flagged for a closer look

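The effects of the siRNAs against control differed by a direct test of siTARBP2-1 against siTARBP2-2 (limma, adjusted p under 0.05 over all kept probes) for 4 of the 6 PARP and TRIM genes. The log2 differences were 1.60 for Parp12, 1.19 for Parp14, 1.06 for Trim21 and 1.67 for Trim30a. Of the related genes, the test was passed by Isg15 at 2.03, Usp18 at 1.76, Uba7 at 1.34 and Ube2l6 at 1.14 in the ISG15 list. It was also passed by Irf7 at 2.27, Stat2 at 1.38, Ddx58 at 1.08, Trim30d at 0.92 and Pml at 0.86, all higher with siTARBP2-1. Dtx4 was lower with siTARBP2-1, at -0.67. The calls of Trim30a, Trim30d, Pml and Dtx4 were lost without siControl-2 and when dim probes were not filtered, among other settings for Trim30a and Dtx4, with limma adjusted p of up to 0.123, 0.107, 0.0646 and 0.102 over the alternatives. The other 10 kept their calls under all 10 alternatives. Each siRNA has 1 array, so siRNA and array cannot be told apart here.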

How the results depend on the processing

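Over the alternatives, 3 to 4 of the 6 genes were called with siTARBP2-1 and 3 to 4 between the siRNAs. With probes detected on all 5 arrays Parp9 dropped out, and the siTARBP2-1 median of the remaining 5 genes was 1.17. Leaving out an array in turn moved the median over both siRNAs between -0.14 and 0.99 and its count of calls between 0 and 4, and moved the siTARBP2-2 count between 0 and 1. The differences over both siRNAs turned negative without siTARBP2-1 for Parp12 (-0.29), Parp14 (-0.026), Trim21 (-0.26) and Trim30a (-0.38), and without siTARBP2-2 they were 1.31, 1.17, 0.81 and 1.29. The siTARBP2-2 difference of Parp14 turned positive with median scaling (0.0126) and without siControl-2 (0.0392), and was -0.0913 without siControl-1. With the replicate block the median over both siRNAs was 0.48 and 0 genes were called, so it changed no call; over all genes 0 were called, against 1. The count of all genes called depends on the settings: it was 683 with siTARBP2-1, against 255 without siControl-2, 435 when dim probes stayed in and 1224 after normexp with an offset of 50. With siTARBP2-2 it was 381, against 57, 83 and 953, and between the siRNAs 630, against 265, 381 and 1272. Over both siRNAs it was 1, against 11 with median scaling, 379 without siTARBP2-1 and 682 without siTARBP2-2. The causes of these shifts were not tested. The dim signal of Parp9 limits what can be said of that gene.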
